A study of Mus musculus with 59 samples.

Results

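The genes described here make, move and sense the inhibitory transmitter GABA, and were followed in the ventral tegmental area (VTA) of male mice given cocaine or saline. They were chosen by name: Gad1, Gad2, Slc32a1, Slc6a11, Abat, Gabbr1 and Gabbr2, which are 7 of the 24346 gene symbols in the table. All 7 were found and all 7 passed the filter on low values in every comparison. The study used 4 paradigms, each with its own saline group: a home cage paradigm with acute injections (5 cocaine and 6 saline libraries), a home cage paradigm with chronic injections (6 and 6), conditioning (6 and 6) and intravenous self-administration (15 and 9). The labels name no strain, allele, age, dose, schedule or interval to tissue collection, and they do not give the route of cocaine in conditioning. The libraries are named below by their group and by the column number, counted from 0, that the table gives them. Nothing in the labels says whether the libraries of a group came from separate animals or pools, and a p-value here reflects the spread among these libraries alone, which may be technical.

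GABA is made from glutamate by the glutamate decarboxylases GAD67 (Gad1) and GAD65 (Gad2), and is loaded into synaptic vesicles by the vesicular transporter VGAT (Slc32a1). After release it is taken up by plasma membrane transporters, among them the mainly astrocytic GAT3 (Slc6a11), and is broken down by GABA transaminase (Abat). It acts on ionotropic GABA-A receptors and on the GABA-B receptor, a G protein-coupled heterodimer whose Gabbr1 subunit binds GABA and whose Gabbr2 subunit couples to the G protein. In the VTA, local and incoming GABA neurons restrain the dopamine neurons, which themselves carry GABA-B receptors coupled to inwardly rectifying potassium channels.

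In the authors' FPKM (fragments scaled to transcript length and library size, the exact scaling not being stated) the genes were abundant. By their mean over the 59 libraries they stood between percentiles 92.3 and 99.0 of all symbols. The sum of FPKM per library ran from 398577 to 457508, and the read depth is unknown. No pair of libraries held identical values. Libraries from self-administration separated from the rest: on the first principal component, with 37.9% of the variance, their highest score was -12.6 and the lowest of the other 35 libraries was 6.93. The labels give no batch, so paradigm and an unlabelled batch cannot be told apart. Dopamine neuron markers were present in every library but unevenly, with a summed level of 10 markers from 486 to 2269 FPKM. Of 6 transcription factors of midbrain GABA neurons, Gata2, Gata3, Tal1, Sox14 and Six3 had means of at least 1 FPKM and Tal2 did not, while all 6 factors of forebrain and hypothalamic GABA neurons had means under 1 FPKM.

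All 7 genes are protein-coding in GENCODE M21 on GRCm38, the assembly that mm10 also names. Gad2 (chr2:22622205-22693874), Gad1 (chr2:70553072-70602014) and Slc32a1 (chr2:158610767-158615748) lie on the plus strand of chromosome 2. Slc6a11 is at chr6:114131241-114249952, Abat at chr16:8513429-8621568 and Gabbr1 at chr17:37045966-37075067, all on the plus strand, and Gabbr2 is at chr4:46662305-46991873 on the minus strand. Gad1 overlaps the antisense gene Gad1os and Slc32a1 the antisense gene Gm14205. The labels do not say whether reads were counted by strand, so reads from such partners cannot be told apart. Gad1os had a mean of 0.0966 FPKM and a highest value of 0.384 FPKM, far under Gad1. Slc6a11 contains a processed pseudogene, Gm8132, on the opposite strand.

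Gad1, Gad2 and Slc32a1 together mark a GABA neuron and varied together in part of the libraries. Of the 3, only Slc32a1 was lower in self-administration than in the other paradigms. RefSeq promoter sequences of these 3 genes are therefore shown. They are on GRCm38.p6, plus strand, written from the 5′ end and ended before the first GENCODE exon of the gene that falls in the window: chr2:70561879-70562041 for Gad1, chr2:22622077-22622204 for Gad2 and chr2:158610508-158610757 for Slc32a1. The stretch of Gad1 lies inside the GENCODE span of the gene, at an internal start, and those of Gad2 and Slc32a1 lie before the start of theirs. Capitals mark matches to GATA, the core bound by GATA factors, on either strand, and to CANNTG, the E-box core bound by factors such as Tal1, which reads the same on both strands.
Gad1: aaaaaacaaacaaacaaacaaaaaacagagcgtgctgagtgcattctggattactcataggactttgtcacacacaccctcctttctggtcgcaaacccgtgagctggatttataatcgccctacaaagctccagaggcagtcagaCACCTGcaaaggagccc
Gad2: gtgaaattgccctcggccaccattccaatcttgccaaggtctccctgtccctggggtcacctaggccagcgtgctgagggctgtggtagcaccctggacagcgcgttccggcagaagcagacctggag
Slc32a1: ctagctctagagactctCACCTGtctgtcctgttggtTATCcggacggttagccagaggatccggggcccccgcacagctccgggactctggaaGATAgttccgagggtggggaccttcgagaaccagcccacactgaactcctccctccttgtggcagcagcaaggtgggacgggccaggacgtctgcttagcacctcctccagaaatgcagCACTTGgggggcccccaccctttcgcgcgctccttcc
Over the whole window of 250 bases before the RefSeq start, which 6 of the 7 genes have in that table, the letters GATA were found 2 times for Slc32a1 and not for Gad1 or Gad2. CANNTG was found 2 times for Slc32a1 and 1 time each for Gad1 and Gad2, the match of Gad2 lying past the bases shown. Of 32851 promoters of that length, 53.6% held GATA and 66.2% held CANNTG, so such matches are common. The GC content of the windows was 58.0% for Gad1, 64.0% for Gad2 and 62.4% for Slc32a1, against a median of 52.4% over all promoters. Gabbr2 had the highest GC content of the 6, 80.8% with 37 CG dinucleotides, against a median of 6 over all promoters.

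**Figure D1:**
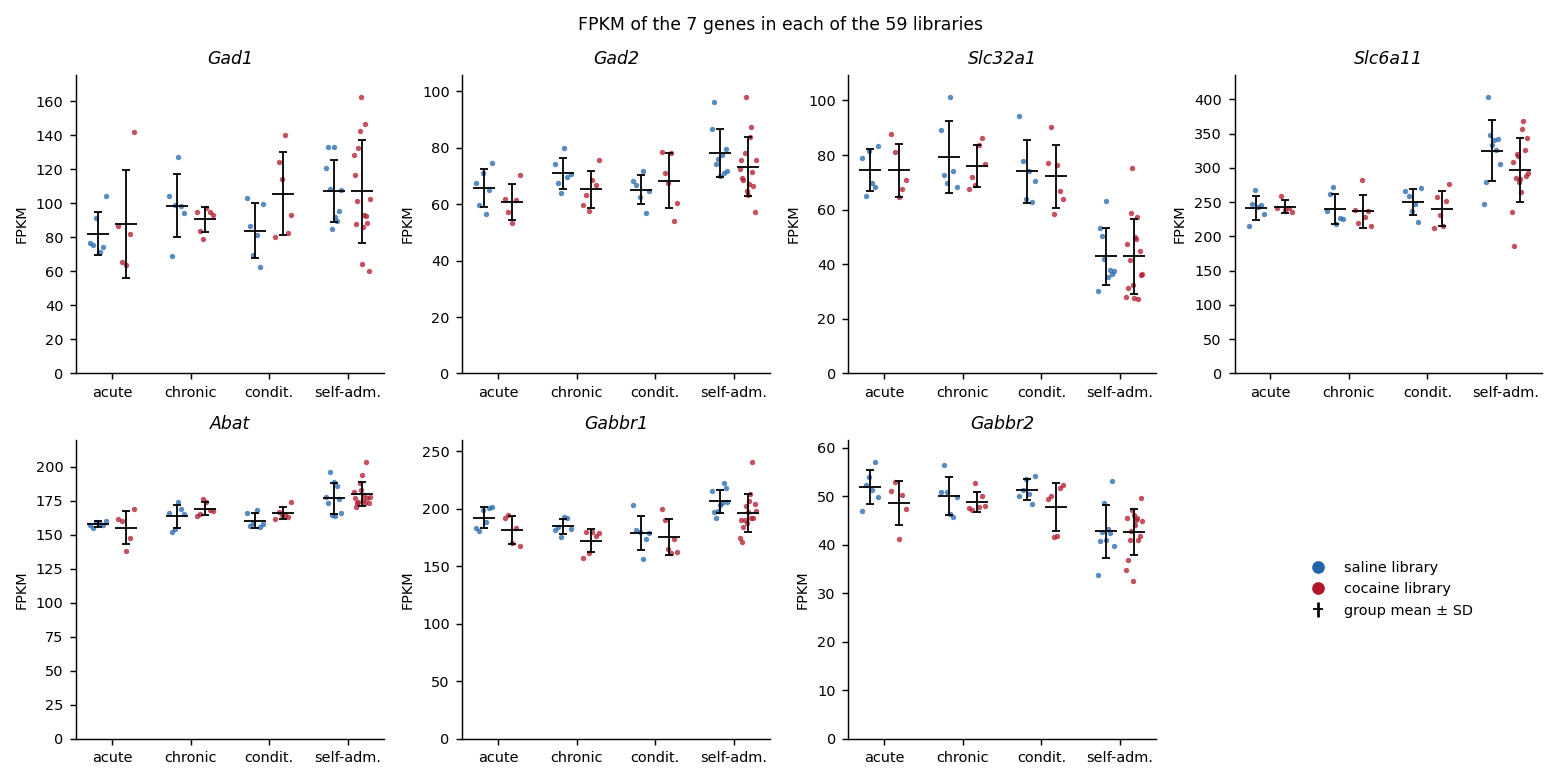
FPKM (y axis) of each gene in every library, by paradigm (x axis) and drug (blue saline, red cocaine), with the group mean ± SD as bars. Slc32a1 and Gabbr2 sit lower, and Slc6a11 higher, in self-administration than in the other 3 paradigms, while cocaine and saline libraries of 1 paradigm overlap for every gene.

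The first question of the design was whether cocaine changed these genes within a paradigm. No difference passed the threshold for any of the 7 genes in any paradigm, by limma on log2(FPKM + 1) with Benjamini-Hochberg adjustment. The background was the same: of all genes tested, 0% were called in acute, chronic, conditioning and self-administration, with 0 of 13164, 0 of 13190, 0 of 13135 and 0 of 13130 genes. At an unadjusted p under 0.05 the same test gave 0 of the 7 genes in acute, 1 in chronic, 0 in conditioning and 0 in self-administration. Over all genes that share was 3.91% in acute, 7.38% in chronic, 8.21% in conditioning and 3.43% in self-administration. Counts of cocaine libraries beyond the saline median or the saline range are given below for each gene. How many of all genes have such counts is not given, so they describe each gene alone.

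Gad1, the first of the enzymes of GABA synthesis, varied widely between libraries. In acute cocaine it was 86.9, 65.6, 63.9, 81.9 and 142 FPKM in libraries 0 to 4, against acute saline with a lowest value of 71.5, a median of 76.1 and a highest of 104. Library 4 alone lay above all saline libraries, and 2 of the cocaine libraries lay below all of them. The difference was 0.05 ± 0.19 (SE) on the log2(FPKM + 1) scale (95% interval -0.37 to 0.46, limma adjusted p = 0.995), and without library 4 it was -0.14. In chronic, Gad1 ran from 79.2 through a median of 94.2 to 97.2 FPKM with cocaine and from 69.0 through 98.6 to 128 with saline. All 6 cocaine libraries lay under the saline median but within the saline range, and the difference was -0.10 ± 0.11 (adjusted p = 0.871). In conditioning, Gad1 was 80.1, 104 and 140 FPKM (lowest, median, highest) with cocaine and 62.6, 84.1 and 103 with saline. Here 3 of 6 cocaine libraries were above every saline library, the largest offset among the 28 comparisons of a gene in a paradigm: 0.32 ± 0.16 (95% interval -0.02 to 0.66, unadjusted p = 0.0634, adjusted p = 0.617). In self-administration the groups spanned 60.2 to 163 FPKM with cocaine and 85.0 to 133 with saline, with means of 107 in both and a difference of -0.04 ± 0.14 (adjusted p = 0.999).

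Gad2 varied less than Gad1, with a coefficient of variation within groups of 7.81% to 14.3% against 8.08% to 36.0%. Its cocaine minus saline difference was -0.11 ± 0.08 in acute, -0.12 ± 0.07 in chronic, 0.06 ± 0.09 in conditioning and -0.10 ± 0.07 in self-administration (limma adjusted p from 0.739 to 0.999). In chronic, where the difference was the most negative, cocaine libraries ran from 57.7 to 75.6 FPKM around a median of 65.1 and saline libraries from 63.8 to 79.9 around 70.0. Of those 6 cocaine libraries, 3 were below all saline libraries, and in self-administration 7 of 15 were. Over the 4 paradigms, 22 of 32 cocaine libraries lay below the median of their own saline group.

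The vesicular transporter Slc32a1 had group means from 72.2 to 79.3 FPKM with either drug in acute, chronic and conditioning. Acute cocaine libraries 0 to 4 had 87.8, 81.2, 64.7, 67.5 and 70.9 FPKM, and acute saline libraries 65.1, 74.5 and 83.2 (lowest, median, highest). Chronic cocaine had 67.6, 74.4 and 86.1 against 68.2, 73.5 and 101 with saline, and conditioning cocaine 58.5, 71.7 and 90.3 against 62.8, 72.5 and 94.4. The groups overlapped in each paradigm, and 16 of 32 cocaine libraries lay below their saline median and 16 above. The differences were -0.0048 ± 0.09 in acute, -0.05 ± 0.10 in chronic, -0.04 ± 0.11 in conditioning and -0.03 ± 0.16 in self-administration (limma adjusted p from 0.934 to 0.999). The widest 95% interval, from -0.35 to 0.30 in self-administration, did not exclude a change of that size in either direction.

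For uptake and breakdown, the differences were small. Slc6a11 in acute cocaine was 241, 259, 238, 241 and 236 FPKM against a saline median of 245, and the difference was 0.0092 ± 0.05. It was -0.02 ± 0.07 in chronic, -0.06 ± 0.07 in conditioning and -0.13 ± 0.09 in self-administration, with limma adjusted p from 0.828 to 0.999. In self-administration, 12 of 15 cocaine libraries lay under the saline median of 334 FPKM, with 2 under every saline library. Abat, the narrowest of the genes, gave -0.03 ± 0.05, 0.05 ± 0.04, 0.05 ± 0.04 and 0.03 ± 0.04 in the same order (adjusted p from 0.730 to 0.999). All 6 conditioning cocaine libraries of Abat (162 to 174 FPKM) lay above the saline median of 158, and 5 of them within the saline range.

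Gabbr1 had a negative difference in each paradigm, and none passed the threshold. Acute cocaine libraries 0 to 4 had 192, 195, 171, 183 and 167 FPKM, against saline with 181, 194 and 202 (lowest, median, highest). Chronic cocaine had 157, 178 and 180.1 FPKM against 176, 183 and 193 with saline, conditioning 161, 169 and 199.7 against 156, 179 and 203, and self-administration 171, 192 and 241 against 192, 205 and 222. In self-administration 8 of 15 cocaine libraries lay below all saline libraries, although the highest value of all was also a cocaine library. All 6 chronic cocaine libraries lay under the saline median, 2 of them below the whole saline range. The differences were -0.08 ± 0.05 in acute, -0.10 ± 0.04 in chronic, -0.03 ± 0.07 in conditioning and -0.08 ± 0.05 in self-administration. Only the chronic difference had an unadjusted limma p under 0.05 (0.0392, adjusted 0.657). Counted over the 4 paradigms, 26 of 32 cocaine libraries were below the median of their saline group, the most of the 7 genes. The share of all genes with a count as high is not given, so this is no evidence of a consistent decrease.

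Gabbr2, the signalling partner, gave -0.10 ± 0.07 in acute, -0.03 ± 0.05 in chronic, -0.11 ± 0.06 in conditioning and -0.0057 ± 0.07 in self-administration (limma adjusted p from 0.659 to 0.999). Its groups overlapped throughout: the acute cocaine libraries had 51.2, 52.9, 41.3, 50.3 and 47.3 FPKM and the saline libraries 46.9 to 57.1. In conditioning, cocaine ran from 41.6 to 52.2 and saline from 48.5 to 54.2, with 2 cocaine libraries below all saline libraries.

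**Figure D2:**
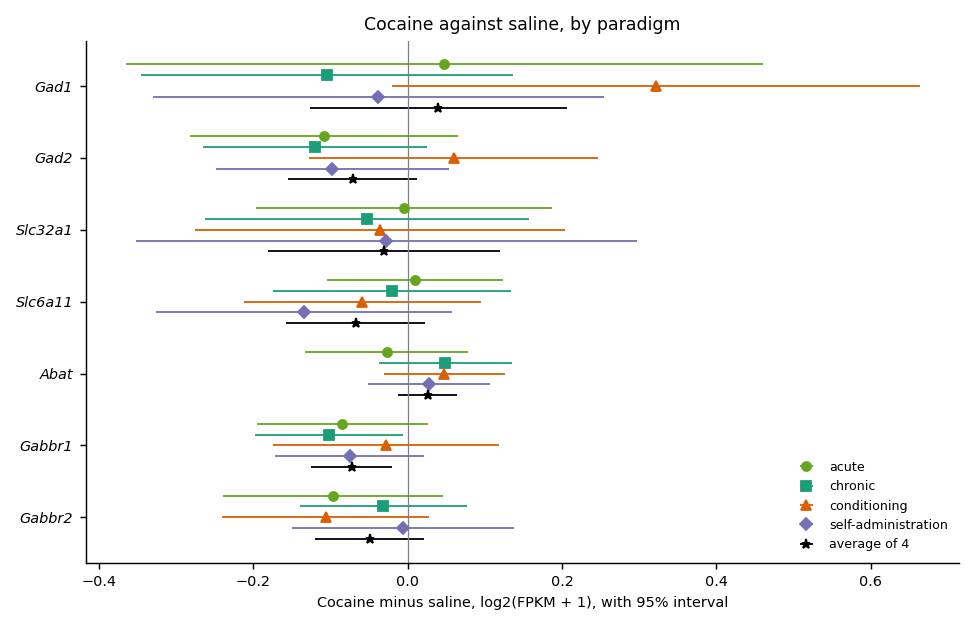
Cocaine minus saline (x axis, log2(FPKM + 1)) for each gene (y axis), as points for the 4 paradigms and a star for their average, with 95% intervals from limma as lines. Every interval within a paradigm includes 0 except that of Gabbr1 in chronic (-0.20 to -0.0058), and none of the differences passed the adjusted threshold.

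A single effect of cocaine over the 4 paradigms, with the paradigm as an additive term, called 0 of the 7 genes and 1 of 13186 genes (0.00758%). Gabbr1 was closest, at -0.07 ± 0.03 (95% interval -0.13 to -0.02, limma unadjusted p = 0.0073, adjusted p = 0.254), and stood at rank 376 by p among the genes tested. Gad2 was next at -0.07 ± 0.04 (adjusted p = 0.475), followed by Slc6a11 at -0.07 ± 0.05 (0.539), Gabbr2 at -0.05 ± 0.04 (0.569) and Abat at 0.03 ± 0.02 (0.591). Slc32a1 gave -0.03 ± 0.08 and Gad1 0.04 ± 0.08 (adjusted p = 0.904 and 0.882). Of all genes, 12.8% had an unadjusted p under 0.05, as did 1 of the 7. The median difference of the 7 genes was -0.05 and that of all genes tested was near 0 (49.6% of genes positive).

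Whether cocaine acted differently between paradigms was tested as the difference of the effects, in 6 pairs. None of the 7 genes was called in any pair by limma, and 0 of them had an unadjusted p under 0.05, against 1.11% of all genes for chronic minus acute, 1.41% for conditioning minus acute, 1.73% for self-administration minus acute, 2.18% for conditioning minus chronic, 2.21% for self-administration minus chronic and 3.00% for self-administration minus conditioning. All 6 pairs had 0% of genes called at the adjusted threshold. The largest differences were those of Gad1: conditioning minus chronic was 0.43 ± 0.26 (95% interval -0.09 to 0.94, unadjusted p = 0.103), self-administration minus conditioning -0.36 ± 0.22 (p = 0.115) and conditioning minus acute 0.27 ± 0.26 (p = 0.302). The lowest limma adjusted p among the 42 tests was 0.99994. The offset of Gad1 in conditioning was therefore not shown to differ from that in the other paradigms.

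Other genes of the pathway were read from a list of 29, of which 27 passed the filter on low values: transporters and enzymes of GABA uptake and breakdown, suppliers of its precursor glutamine and glutamate, the enzyme Aldh1a1 and carrier Slc18a2 of an alternative GABA route in dopamine neurons, and partners and effectors of the GABA-B receptor. None was called by limma in any of the 4 cocaine comparisons or in the average, and 0, 0, 4, 0 and 3 of them had an unadjusted p under 0.05 in acute, chronic, conditioning, self-administration and the average. The smallest unadjusted p values belonged to the glutamine transporter Slc38a2 (0.12 ± 0.06, p = 0.0937) and the potassium channel subunit Kcnj6 (-0.28 ± 0.17, p = 0.123) in acute. In chronic they belonged to glutamine synthetase, Glul (0.09 ± 0.05, p = 0.0769), and to the GABA-B auxiliary subunit Kctd12 (-0.13 ± 0.09, p = 0.169). In conditioning 4 genes reached an unadjusted p under 0.05, all lower with cocaine and all from the receptor's partners and effectors, led by Kctd12 (-0.20 ± 0.05, p = 0.00238) and the GABA-B interacting protein Jakmip1 (-0.18 ± 0.07, p = 0.0175). The limma adjusted p of both was 0.591, and 4.28% of all genes were lower at that limit. In self-administration the aldehyde dehydrogenase Aldh9a1 had -0.06 ± 0.05 (p = 0.180). In the average, Jakmip1 (-0.07 ± 0.03, p = 0.0264) and Glul (0.07 ± 0.03, p = 0.0370) did, with limma adjusted p of 0.325 and 0.353. The median difference of the list lay between -0.04 and 0.02 in these 5 comparisons, and that of all genes between -0.0011 and 0.0024.

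The larger differences in level lay between paradigms. Self-administration was compared with the mean of the other 3 paradigms, once among the 4 saline groups and once among the 4 cocaine groups, which share no library. Among saline groups all 7 genes passed the threshold, 5 higher and 2 lower, and among cocaine groups 6 did, 4 higher and 2 lower. The background was high: limma called 59.6% of 13202 genes in the saline groups (31.8% higher, 27.8% lower) and 59.1% of 13175 in the cocaine groups (32.2% higher, 26.9% lower). A call by itself is therefore near what most genes showed, and the sizes and directions carry the description. Counts of libraries that lay beyond all libraries of the other paradigms are given below for genes and ratios. The share of all genes that part as far is not given, so these counts describe each gene alone. In tissue that mixes cell types, fewer cells of a type and less RNA per cell cannot be told apart.

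Slc32a1 was the gene furthest from the other paradigms. It had 27.3, 41.5 and 75.3 FPKM (lowest, median, highest) in self-administered cocaine and 30.2, 37.9 and 63.2 in self-administered saline, against 58.5 to 101 FPKM in the other 35 libraries. Of 24 self-administration libraries 21 lay below all 35 others, and the mean was 42.9 ± 12.4 FPKM (SD, n = 24) against 75.1 ± 9.90 (n = 35), a change of -42.8%. The log2 difference was -0.83 ± 0.10 in saline groups (limma adjusted p = 5.02e-08) and -0.83 ± 0.11 in cocaine groups (2.59e-07). That placed it at percentiles 2.51 and 2.11 of all genes tested in the same contrasts. Gabbr2 was the other gene that was lower, with 42.7 ± 4.91 FPKM in self-administration against 49.8 ± 3.68, and 9 of 24 libraries lay below all 35 others. Its log2 difference was -0.26 ± 0.05 in saline and -0.19 ± 0.05 in cocaine groups (limma adjusted p = 9.86e-05 and 0.00228).

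The genes that rose differed in size. Slc6a11 had 307.63 FPKM on average in self-administration and 242 in the other paradigms, and 18 of 24 libraries lay above all 35 others, with 1, at 186 FPKM, below them. Its log2 difference was 0.40 ± 0.06 in saline and 0.29 ± 0.07 in cocaine groups (limma adjusted p = 2.03e-06 and 0.000421). Abat had 179 against 162 FPKM, with 14 of 24 libraries above all others, and rose by 0.14 ± 0.03 in both (adjusted p = 0.000590 and 5.96e-05). Gabbr1 had 200.1 against 181 FPKM and rose by 0.16 ± 0.04 and 0.15 ± 0.04 (0.000525 and 0.00181), with 9 libraries above all others. Gad2 had 75.1 against 66.1 FPKM and rose by 0.21 ± 0.05 and 0.17 ± 0.06 (0.00120 and 0.0196). Gad1 had 107 against 91.7 FPKM with wide overlap, and only 3 libraries lay above all others. It rose in saline groups by 0.28 ± 0.10 (limma adjusted p = 0.0145), a call that was lost with library weights (0.12, adjusted p = 0.254), and its difference in cocaine groups was 0.16 ± 0.13 (95% interval -0.10 to 0.41, adjusted p = 0.285).

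**Figure D3:**
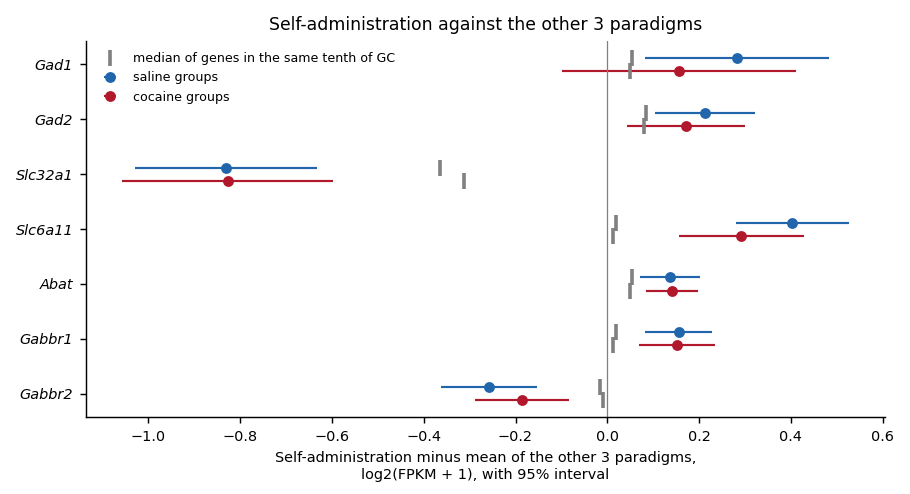
Self-administration minus the mean of the other 3 paradigms (x axis, log2(FPKM + 1)) for each gene (y axis), in saline groups (blue) and cocaine groups (red), with 95% intervals from limma as lines and grey ticks for the median of genes of like transcript GC content. Slc32a1 at -0.83 in both and Gabbr2 lie left of 0, the other 5 genes right of it, and only the interval of Gad1 in cocaine groups includes 0.

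Genes that work in 1 cell or 1 complex were also compared by their ratios of FPKM. Slc32a1 to Gad2 was 1.14 ± 0.13 (SD, n = 35) in the other paradigms and 0.571 ± 0.14 (n = 24) in self-administration, where 23 of 24 libraries lay below all 35 others. Slc32a1 to Gad1 was likewise lower, at 0.412 ± 0.10 against 0.845 ± 0.16, with 19 of 24 libraries below all others. Gad1 to Gad2 had close means, at 1.38 ± 0.23 and 1.43 ± 0.32, with ranges that overlapped almost wholly. For the receptor, Gabbr2 to Gabbr1 was 0.276 ± 0.024 and 0.214 ± 0.024, with 20 of 24 self-administration libraries below all others. These ratios were not tested. In saline groups, genes of like transcript GC content had a median difference of -0.36 for Slc32a1 and 0.08 for Gad2. For Gabbr2 and Gabbr1 those medians were -0.02 and 0.02. The part of GC content in the ratios was not tested.

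**Figure D4:**
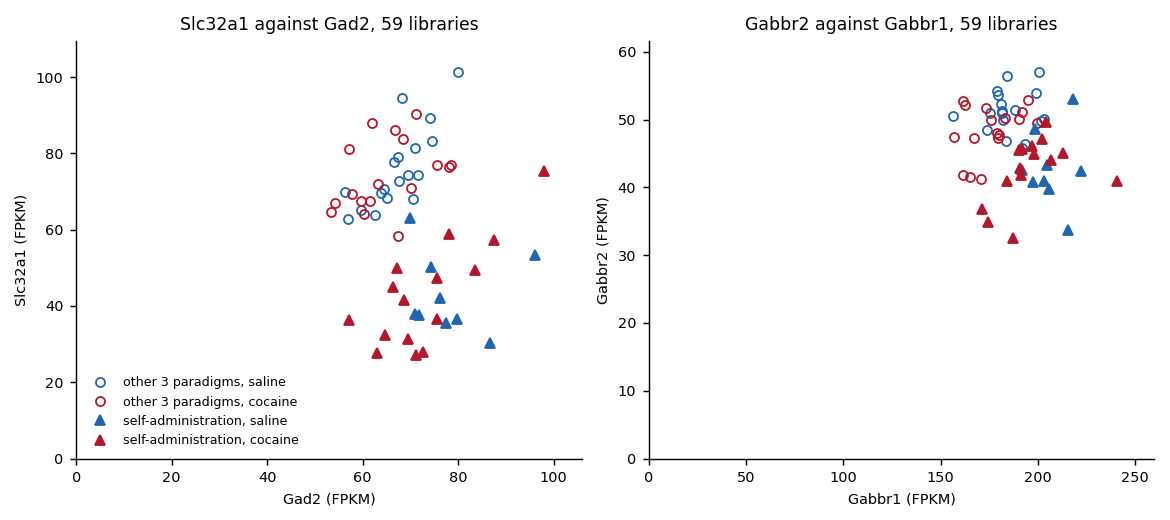
FPKM of Slc32a1 against Gad2 (left) and of Gabbr2 against Gabbr1 (right) in the 59 libraries, open circles for the other 3 paradigms and filled triangles for self-administration, blue saline and red cocaine. At the same Gad2 level the self-administration libraries hold less Slc32a1, and they reach lower Gabbr2 at equal or higher Gabbr1.

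Transcript composition moved with these differences. With genes cut into 10 bins of like size by the GC content of their longest coding transcript, the median difference of self-administration ran from 0.11 in the lowest bin to -0.36 in the highest in saline groups, and from 0.11 to -0.31 in cocaine groups. Slc32a1, at 61.9% GC, was in the highest bin, and relative to that bin's median its difference was -0.47 in saline and -0.52 in cocaine groups, at percentiles 14.5 and 12.1 of the genes in that bin. Gabbr2, at 56.0% GC, was in bin 8, whose median was -0.02 and -0.0087, and its difference relative to it was -0.24 and -0.18. The others had 44.1% (Gad2), 48.4% (Gad1), 50.2% (Abat), 53.0% (Gabbr1) and 53.9% (Slc6a11), and relative to their bins all stayed positive, from 0.08 for Abat to 0.39 for Slc6a11 in saline groups and from 0.09 for Gad2 and Abat to 0.28 for Slc6a11 in cocaine groups. An index of this gradient per library, the median log2(FPKM + 1) of the highest bin minus that of the lowest, was 0.46 ± 0.13 (SD) in the other 35 libraries and -0.08 ± 0.24 in the 24 of self-administration. Slc32a1 itself belongs to the highest bin, which defines the index. The share of that bin's genes that follow the index as closely is not given. Within self-administration, with group means removed, Slc32a1 followed the index (Pearson r = 0.810, Spearman rho = 0.879, permutation p = 1e-05 for both, the smallest that 100000 permutations can give, adjusted p = 0.00014 over 14 relations), and r was 0.852 without the 2 most extreme libraries. In the other 35 libraries the same relation was weak (r = 0.037, rho = -0.021, permutation p = 0.854 and 0.911, adjusted 0.854 and 0.911, r = 0.069 without 2). Gabbr2 also followed it within self-administration (r = 0.695, rho = 0.482, permutation p = 0.00031 and 0.0204, adjusted 0.00217 and 0.0571, r = 0.474 without 2), and in the other 35 libraries (r = 0.471, rho = 0.505, permutation p = 0.0211 and 0.00765, adjusted 0.0422 and 0.0357, r = 0.391 without 2). Genes that were not lower in self-administration also ran with or against the index, given as description. Slc6a11, which was higher in self-administration, followed it in both sets, with r = 0.571 over 35 libraries (rho = 0.635, permutation p = 0.00202 and 0.00045, adjusted 0.00943 and 0.00315, r = 0.543 without 2) and r = 0.505 over 24 (rho = 0.423, permutation p = 0.0135 and 0.0460, adjusted 0.0315 and 0.0920, r = 0.412 without 2). Over the 35 libraries Gad2 ran against it (r = -0.544, rho = -0.459, permutation p = 0.00423 and 0.0124, adjusted 0.0148 and 0.0434, r = -0.440 without 2), as did Gad1 (r = -0.502, rho = -0.391, permutation p = 0.00805 and 0.0344, adjusted 0.0225 and 0.0803, r = -0.320 without 2). Transcript length moved with the differences too: in bins by length, the median ran from -0.15 in the shortest to 0.13 in the longest in saline groups and from -0.16 to 0.13 in cocaine groups. Relative to their length bins, Gabbr1 was 0.050 in saline and 0.044 in cocaine groups, Abat 0.056 and 0.066, Gad2 0.11 and 0.064, and Gabbr2 -0.36 and -0.29. Slc32a1 was -0.84 and -0.83 relative to its length bin, Slc6a11 0.35 and 0.24 and Gad1 0.25 and 0.12. How much of each gene's difference goes with these gradients was not tested beyond these values.

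**Figure D5:**
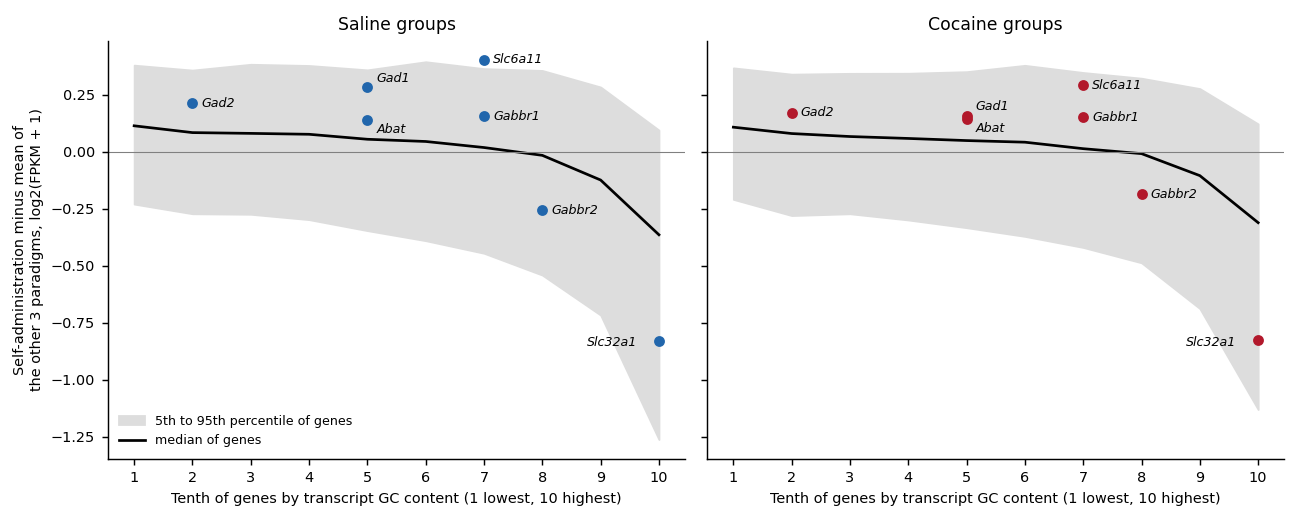
Self-administration minus the mean of the other 3 paradigms (y axis, log2(FPKM + 1)) by bin of transcript GC content (x axis), in saline groups (left) and cocaine groups (right), with the median of genes as a line, their 5th to 95th percentiles in grey and the 7 genes as points. The line bends down from bin 8 to bin 10, where Slc32a1 lies at -0.83, below the median of its bin but within the grey band.

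Markers of cell types were read as well, and their part in the result was not tested. Of all genes, limma called 31.8% higher and 27.8% lower in saline groups, and 32.2% and 26.9% in cocaine groups. The counts of called markers below are to be read beside these shares, and no list was tested. Those of the dopamine and hypothalamic markers were not far from them. The summed level of the 6 midbrain GABA neuron factors was 12.5 ± 2.43 FPKM (SD; 8.49 to 18.8) in self-administration and 16.1 ± 2.42 (11.5 to 21.6) in the other paradigms. Of its 5 tested genes, Gata3, Tal1 and Sox14 were lower in both saline and cocaine groups by limma, with adjusted p of 0.0212 or less in saline and 0.0147 or less in cocaine groups, while Gata2 and Six3 were not called. Sox14 averaged 0.744 FPKM in self-administration and 1.58 in the other paradigms. It passed the filter on low values only through the latter, so its call carries no weight of its own. The 9 astrocyte markers summed to 1173.5 ± 119 FPKM (894 to 1440.1) against 944.5 ± 46.2 (861 to 1064), with 6 higher and 1 lower in saline groups and 5 higher and 2 lower in cocaine groups. Summed oligodendrocyte markers were lower (5264 ± 1023 against 7619 ± 875 FPKM, from 3477 to 8325 and from 5784 to 9705), with 7 of 8 called lower in each. Of 10 dopamine neuron markers 2 were called lower in each, Pitx3 (0.847 against 9.79 FPKM) and En1 (12.3 against 26.8), with summed levels of 514 to 2007 against 486 to 2269 FPKM. Pitx3 likewise passed the filter only through the other paradigms, so its call carries no weight of its own. Microglial markers were lower for 3 of 5 in each, at sums of 48.3 to 101 against 64.3 to 114 FPKM. Of the hypothalamic and mammillary markers 3 of 7 tested were higher in saline and 2 of 6 in cocaine groups, among them Pmch (28.3 against 3.15 FPKM). By their means 6 of the 8 listed were higher, and Cartpt (219 against 416 FPKM) and Otp (0.258 against 1.13) were lower. Their sum, 17.5 to 620.2 against 14.7 to 1417 FPKM, was lower on average, and Cartpt made up most of it. Of the 8, Hcrt, Sim1, Nkx2-1 and Trh averaged at least 1 FPKM only in self-administration, so a call of any of them leans on the filter. The 6 forebrain and hypothalamic GABA neuron factors had a mean sum of 4.06 (0.884 to 15.5) against 2.21 (0.257 to 6.77) FPKM, each higher on average in self-administration. Of the 6 midbrain factors only Tal2 was higher on average (0.238 against 0.168 FPKM). None of the forebrain and hypothalamic factors was called. Their means over all libraries were under 1 FPKM and factors that missed the filter were not tested, so the lack of calls says little. Summed glutamate neuron markers were 139 ± 19.6 FPKM (SD) in self-administration against 113 ± 16.7, with all 3 higher on average. Endothelial markers summed to 45.3 ± 9.8 against 50.1 ± 7.4 FPKM, with 2 of 4 higher on average. Calls for these 2 lists are not given. Of the 10 dopamine neuron markers, 0 were higher on average. No defining marker was listed at 0 in all libraries.

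Of the 27 pathway genes tested, 14 were higher and 3 lower in self-administration among saline groups, and 12 higher and 2 lower among cocaine groups. The higher share was above the 31.8% and 32.2% of all genes and the lower share below the 27.8% and 26.9%, as a description with no test of the list. All 5 tested genes of uptake and breakdown were called higher in saline groups and 3 in cocaine groups. Precursor supply had 4 of 6 higher in each, led by Glul (0.45 ± 0.05 and 0.47 ± 0.05), the astrocytic enzyme that turns glutamate into glutamine, with Slc38a2 (0.45 ± 0.06) in saline groups and with the glutamine transporter Slc38a1 (0.25 ± 0.04) in cocaine groups. Among 14 partners and effectors of the receptor, 5 were higher in each and 3 and 2 were lower. The potassium channel subunit Kcnj5 was higher (0.37 ± 0.05 in saline groups), and Jakmip1 (-0.29 ± 0.04 and -0.21 ± 0.04) and App (-0.15 ± 0.03 and -0.15 ± 0.04), which binds the GABA-B receptor, were lower, as was the receptor-binding Ajap1 in saline groups (-0.19 ± 0.06). Each of these passed the limma threshold, with the largest adjusted p, 0.0133, for Ajap1.

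A joint moderated F test over the 4 paradigms called 7 of 7 genes in saline groups (48.9% of all genes) and 5 of 7 in cocaine groups (50.4%). Gad1 (limma adjusted p = 0.433) and Gad2 (0.0757) were not called in cocaine groups. The call of Gad1 in saline groups (adjusted p = 0.0330) was lost, with values from 0.0508 to 0.0637, on leaving out acute saline library 0, 1, 3 or 4, conditioning saline library 2 or 4, or self-administered saline library 0, 1 or 4. That of Gad2 in cocaine groups was gained without acute cocaine library 4 (0.0415) or self-administered cocaine library 13 (0.0325). Among the other 3 paradigms no member was called. Conditioning minus the mean of acute and chronic had none of the members called, with 0.0303% of genes called in saline and 0.0152% in cocaine groups, and chronic minus acute called none, with 0% in both. At an unadjusted limma p under 0.05, the share of all genes was 4.79% (saline) and 7.34% (cocaine) for conditioning against the home cage paradigms, and 2.54% and 4.53% for chronic minus acute. Of the 7 genes, 1 reached it in 1 of these 4 contrasts: Abat, higher in chronic than in acute cocaine by 0.13 ± 0.05 (p = 0.0117, adjusted p = 0.998), and without acute cocaine library 2 by 0.09. In the order of group means, Slc32a1 showed a gap above the smaller SD of the neighbouring groups at 1 place, between conditioning cocaine at 72.2 FPKM and self-administered cocaine at 42.9. Slc6a11 likewise had 1 such gap, from self-administered cocaine at 297 to conditioning saline at 250.2 FPKM, and Gabbr2 had 1, from conditioning cocaine at 47.8 to self-administered saline at 42.8. Such gaps also lay among the other paradigms: for Gad1 between chronic saline at 98.8 and chronic cocaine at 90.6 FPKM, and for Gabbr1 between acute saline at 192 and chronic saline at 185. Abat had 3, from self-administered saline at 177 to chronic cocaine at 169, from conditioning saline at 161 to acute saline at 158, and from there to acute cocaine at 155 FPKM. No neighbouring groups of Gad2 were parted by more than the smaller SD. The widest uncalled differences among these paradigms were those of Gad1, 0.25 ± 0.14 for chronic minus acute saline (95% interval -0.03 to 0.54) and 0.24 ± 0.18 for conditioning against the home cage paradigms with cocaine (-0.12 to 0.61), so changes within these intervals were not excluded.

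Variation between libraries of a group showed which genes moved together. Values were centred on group means, the 35 and the 24 libraries were kept apart, and 94 relations were computed, with r and rho tested by permutation within groups and adjusted over all of them. In the other 35 libraries, Gad1 and Gad2 varied together (r = 0.640, rho = 0.669, permutation p = 0.00015 and 0.0001, adjusted 0.00235 and 0.00157, r = 0.620 without the 2 libraries most extreme on the first measure). So did Gad2 and Slc32a1 (r = 0.593, rho = 0.660, permutation p = 0.0008 and 0.00013, adjusted 0.0107 and 0.00175, r = 0.632 without 2). Gad1 and Slc32a1 gave r = 0.448 and rho = 0.535 (permutation p = 0.0177 and 0.00328, adjusted 0.110 and 0.0343, r = 0.544 without 2). In self-administration Gad1 and Gad2 gave r = 0.577 and rho = 0.497 (permutation p = 0.00559 and 0.0190, adjusted 0.0494 and 0.128, r = 0.657 without 2), and Gad2 and Slc32a1 gave r = 0.489 and rho = 0.329 (permutation p = 0.0214 and 0.133, adjusted 0.112 and 0.369, r = 0.254 without 2). There Gad1 and Slc32a1 gave r = 0.417 and rho = 0.390 (permutation p = 0.0606 and 0.0731, adjusted 0.228 and 0.258, r = 0.565 without 2). The subunits of the receptor were only loosely tied: Gabbr1 and Gabbr2 had r = 0.256 over 35 and 0.321 over 24 libraries, given as description. Slc6a11 and Gabbr2, a pair not among those tested, had r = 0.633 and 0.634.

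The level of the midbrain GABA neuron factors, as the mean of log2(FPKM + 1) over the list, ran with the genes of GABA neurons in the 35 libraries, and within self-administration with Gad1. Over 35 libraries its relation was r = 0.679 with Gad1 (rho = 0.708, permutation p = 1e-05 for both, the smallest possible, adjusted 0.00047, r = 0.707 without 2) and r = 0.648 with Slc32a1 (rho = 0.676, permutation p = 3e-05 for both, adjusted 0.00094, r = 0.633 without 2). With Gad2 it was r = 0.477 (rho = 0.554, permutation p = 0.00631 and 0.00118, adjusted 0.0494 and 0.0139, r = 0.488 without 2). Within self-administration the relation with Gad1 was r = 0.769 (rho = 0.779, permutation p = 9e-05 and 8e-05, adjusted 0.00169 and 0.00157, r = 0.752 without 2). With Slc32a1 it was r = 0.234 there (rho = 0.269, permutation p = 0.306 and 0.219, adjusted 0.518 and 0.445, r = 0.332 without 2), and with Gad2 r = 0.235 (rho = 0.199, permutation p = 0.302 and 0.364, adjusted 0.518 and 0.571, r = 0.220 without 2). Dopamine neuron markers, by contrast, ran with Gabbr1 in the 35 libraries (r = 0.762, rho = 0.761, permutation p = 1e-05 for both, adjusted 0.00047, r = 0.732 without 2). They ran with Slc32a1 too (r = 0.673, rho = 0.669, permutation p = 9e-05 for both, adjusted 0.00169 and 0.00157, r = 0.671 without 2), and in self-administration r with Slc32a1 was -0.151 (rho = -0.12, permutation p = 0.481 and 0.577, adjusted 0.685 and 0.786, r = -0.033 without 2). In self-administration the relation of dopamine markers and Gabbr1 was r = 0.430 (rho = 0.363, permutation p = 0.0335 and 0.0869, adjusted 0.152 and 0.272, r = 0.392 without 2). Oligodendrocyte markers ran against Gabbr1 in the 35 libraries (r = -0.556, rho = -0.489, permutation p = 0.00232 and 0.00902, adjusted 0.0273 and 0.0697, r = -0.463 without 2) and with Slc32a1 in self-administration (r = 0.566, rho = 0.572, permutation p = 0.0042 and 0.0053, adjusted 0.0439 and 0.0453, r = 0.537 without 2). The values of the same pairs in the opposite set were r = -0.094 for Slc32a1 in the 35 libraries (rho = -0.015, permutation p = 0.601 and 0.937, adjusted 0.773 and 0.964, r = -0.066 without 2) and r = -0.237 for Gabbr1 in self-administration (rho = -0.243, permutation p = 0.263 and 0.265, adjusted 0.478 and 0.470, r = -0.124 without 2). Differences between the sets of libraries were not tested. The dissected share of dopamine and GABA cells was not measured, and its part in these relations was not tested.

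The genes most like each member were sought among 13186 genes over the 59 libraries, by Pearson r of log2(FPKM + 1) centred on group means, as a description. Gad1 was most like Slc30a3, a zinc transporter (r = 0.749), Tal1, a factor of midbrain GABA neurons (0.735), and Arhgef3 (0.720). Gad2 had weaker company: Slc30a3 (0.541), Mtmr10 (0.528) and Ppm1h (0.508). Slc32a1 was most like genes from outside neuronal signalling, the mitochondrial protease subunit Clpp (0.800), Hspbp1 (0.782) and the respiratory chain subunit Uqcr11 (0.779), with r of 0.882, 0.856 and 0.863 within self-administration and 0.524, 0.466 and 0.394 in the other libraries, a difference that was not tested. Slc6a11 was most like Sfxn5 (0.865), Fads2 (0.863) and Pcdhgc3 (0.834). For Abat the first was Aldh5a1 (0.726), the dehydrogenase that acts next after Abat in GABA breakdown, before Abhd4 (0.658) and Serpine2 (0.642). Gabbr1 was most like Tmem43 (0.828), Dnajc6 (0.819) and the kainate receptor gene Grik3 (0.811), and Gabbr2 most like Prrc2b (0.852), Nisch (0.848) and Pcdhga12 (0.836). Pcdhgc3 and Pcdhga12 belong to a protocadherin cluster with shared exons, so their FPKM depend on how reads were divided.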

How the data were processed

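RNA sequencing of VTA tissue gave 59 libraries in 8 groups. Per the labels, RNeasy columns gave the RNA and a TruSeq RNA kit the libraries. The authors deposited FPKM for each symbol in 1 table. Bowtie, Cuffnorm and mm10 were used, per the submitters' processing notes. The sources used here do not state versions, annotation, strand setting or scaling. FPKM are scaled to library size, here by a rule that is not stated, so a shift in GC bias or a few abundant transcripts may move many genes. Read depth and counting error are unknown. All 59 columns were used, mapped to groups by name.

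Here values were taken as log2(FPKM + 1), genes whose mean reached 1 FPKM over the libraries compared were kept, and limma 3.58.1 in R 4.3.3 was fitted to the whole table (trend and robust options, two-sided, Benjamini-Hochberg threshold 0.05). The fit was tested on simulated data. A fold change on this scale understates that of low genes. Correlations used 100000 permutations within groups in Python 3.11.15 with scipy 1.17.1. Transcript GC content came from GENCODE M21 (longest coding transcript, 96.4% of genes matched) and promoters from RefSeq GRCm38.p6. The genes, the marker and pathway lists and all tests were chosen with earlier results of these data known. All 7 genes are named in every comparison. Pathway genes are named up to 4 per direction by p where called, otherwise the first 2 for the cocaine comparisons, and the 3 genes most like each member are named. Results for some pathway genes that this rule would name are not reported here, though they are counted. Alternatives were a pseudocount of 0.1, no filter, quantile normalization, median centring, library weights, 1 fit of all groups, FPKM scaled to 1000000 and leaving out each library. The GC and length bins and the GC index were chosen after seeing the data.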

Additional observations from a re-analysis of the deposited data

Results flagged for a closer look

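Of 49 groups of 5 to 9 libraries examined for a library far from the rest, 1 was marked: Slc6a11 in acute cocaine library 1, at 259 FPKM, stood above the other libraries of its group, which had 236 to 241 FPKM, by a gap of 0.760 of the group's range on the log2(FPKM + 1) scale, against a critical value of 0.71. It lies within the range of the acute saline libraries, 215 to 268 FPKM. Chance marks about 1 in 20 groups.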

How the results depend on the processing

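No member was called in any cocaine comparison, and none of the counts of called members left its main value by more than 1.5 times, under any alternative run. Differences near 0 changed sign and stayed uncalled, and the cause was not tested. With quantile normalization these were Slc6a11 in acute (-0.024) and Abat in chronic (-0.0089), and with median centring Slc32a1 in acute (0.0032). With library weights they were Gad1 (-0.065), Slc32a1 (0.054) and Slc6a11 (-0.0093) in acute, Slc6a11 (0.018) and Gabbr2 (0.011) in chronic, Slc32a1 (0.019) and Gabbr1 (0.0053) in conditioning, Gad1 (0.036) and Slc32a1 (0.17) in self-administration and Slc32a1 in the average (0.027). Leaving out each library in turn gave -0.14 to 0.15 for Gad1 in acute, -0.085 to 0.017 for Gad1 in self-administration and -0.059 to 0.013 for Abat in acute. For Slc32a1 it gave -0.066 to 0.043, -0.092 to 0.021, -0.10 to 0.036 and -0.089 to 0.044 in acute, chronic, conditioning and self-administration. For Slc6a11 it gave -0.025 to 0.039 in acute and -0.072 to 0.016 in chronic, for Gabbr1 -0.066 to 0.0093 in conditioning, and for Gabbr2 -0.056 to 0.0031 in chronic and -0.046 to 0.034 in self-administration.

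The directions of the self-administration differences held under all alternatives run. The joint test lost Gad1 in saline groups without the filter (adjusted p = 0.0516) and Gabbr2 in cocaine groups with quantile normalization (0.198), and gained Gad2 in cocaine groups with quantile normalization (0.0088), median centring (0.0365) and library weights (0.0089). Over all genes, the average effect called 41 genes with library weights against 1, and 2 or 3 without self-administered saline library 2, 4 or 8. Conditioning against the home cage paradigms called 169 genes with library weights, 7 with a pseudocount of 0.1, 8 with quantile normalization and 2 to 9 without 1 library, against 4 in saline groups. In cocaine groups it called 52 with library weights, 5 without the filter and 1 to 5 without 1 library, against 2. Chronic minus acute called 44 in saline and 9 in cocaine groups with library weights against 0. Single cocaine comparisons called at most 2 genes and the differences between them at most 2. No paired analysis was possible because the columns' numbers, counted from 0, have no stated link to the labels' replicate numbers.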
